A study of Mus musculus with 10 samples.

Results

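The microglia of 9-month-old mice were compared between brains with and without β-amyloid pathology. All cells that the deposited microglia annotation assigns to the 4 libraries of 9 months were used, which gave 8965 of the 40547 annotated microglia and 4 of the 10 libraries of the series. The 4 libraries were WT (2353 microglia), Nlrp3KO (2690), APP/PS1 (2167) and Nlrp3KO APP/PS1 (1755). Each library was 1 pool of CD45+ brain cells from 3 mice (2 males and 1 female), profiled by 10x Genomics 3′ single-cell RNA sequencing. APP/PS1 mice are a transgenic amyloid model whose transgenes, Swedish-mutant APP and a mutant human PS1, are driven in neurons, and Nlrp3KO mice lack the inflammasome sensor Nlrp3 in the whole body. WT and Nlrp3KO carry neither transgene and are called non-diseased here. APP/PS1 was set against WT and Nlrp3KO APP/PS1 against Nlrp3KO, so that each amyloid library had a control of its own Nlrp3 genotype, and the contrast asked what the amyloid background changed in microglia at this age.

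Microglia are the resident macrophages of the brain. Near amyloid plaques they are known to leave their homeostatic state and to switch on a program of lipid handling, lysosomal degradation and phagocytosis, the disease-associated microglia (DAM) program, whose full form depends on the lipid receptor Trem2. The study's annotation separates homeostatic microglia (HM), cells in transition toward DAM (TM), DAM, interferon-response microglia (IRM), a cluster with immediate early genes (IEG) and proliferating microglia (PM). A gene can therefore rise in the sum over all microglia because more cells enter a state that expresses it or because cells of 1 state express more of it, and both were measured here.

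Between 9357431 and 12914104 unique molecular identifiers (UMIs, tags of single captured RNA molecules) were summed per library, and the median microglia held 4619 to 4916 UMIs. Levels are given as CPM, the UMIs of a gene per 1000000 UMIs of the cells summed. Of 10748 cell barcodes in the 4 libraries, 13 occurred in more than 1 library. The microglial markers were high in all 4 libraries, with Cx3cr1 at 4034 to 4675 CPM and P2ry12 at 2333 to 2793 CPM. Nlrp3 reached 34.4 CPM in WT and 51.8 CPM in APP/PS1 and gave 0 UMIs in both Nlrp3KO libraries, where 3 counts would be 0.232 and 0.321 CPM. Microglia made up 90.9% and 92.3% of the CD45+ cells in WT and Nlrp3KO, and 71.4% and 78.9% in APP/PS1 and Nlrp3KO APP/PS1.

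The share of homeostatic cells fell and those of 3 other states rose in the amyloid libraries. HM made up 76.6% of the microglia in WT and 78.3% in Nlrp3KO, but 58.9% in APP/PS1 and 53.7% in Nlrp3KO APP/PS1. DAM made up 2.34% (55 cells) and 3.79% (102 cells) of the non-diseased libraries and 11.7% (253 cells) and 11.5% (202 cells) of the amyloid libraries. For both states the amyloid libraries did not overlap the non-diseased libraries, and libraries within a group also differed beyond their exact binomial intervals, as DAM did between WT and Nlrp3KO and HM between APP/PS1 and Nlrp3KO APP/PS1. The fitted log2 ratio of amyloid to non-diseased shares was −0.46 for HM (SE 0.0551, edgeR adjusted p = 8.25e-08) and 1.94 for DAM (SE 0.274, adjusted p = 7.88e-07). The edgeR test shares 1 estimate of the spread over the 6 states, and a permutation of 2 against 2 libraries alone could not go below 0.333. The 6 shares sum to 1, so a higher share of 1 state lowers the others. The test treats the states as independent, so the changes in share are not separate results.

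IEG cells rose from 3.36% and 4.24% to 8.35% and 9.74% (log2 ratio 1.26, SE 0.302, adjusted p = 0.000684). With the states of the other deposited annotation, made on all CD45+ cells, the ratio was 0.51 and was no longer called (adjusted p = 0.212). The study describes the signature of the IEG cluster as a known response to dissociation of the tissue. The part of dissociation in the rise of the IEG share was not tested. IRM rose from 6.50% and 3.87% to 8.17% and 10.0% (log2 ratio 0.82, SE 0.294, adjusted p = 0.0157). That call was lost without the Nlrp3KO library (0.41, adjusted p = 0.311) and without the Nlrp3KO APP/PS1 library (0.62, adjusted p = 0.229). TM (8.71% and 7.77% against 10.2% and 11.3%) and PM (2.46% and 2.08% against 2.68% and 3.76%) were higher in both amyloid libraries without passing the test (adjusted p = 0.175 and 0.109), although PM passed without cells of a high doublet score (0.66, adjusted p = 0.0199) and without the WT library (0.76, adjusted p = 0.033).

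**Figure D1:**
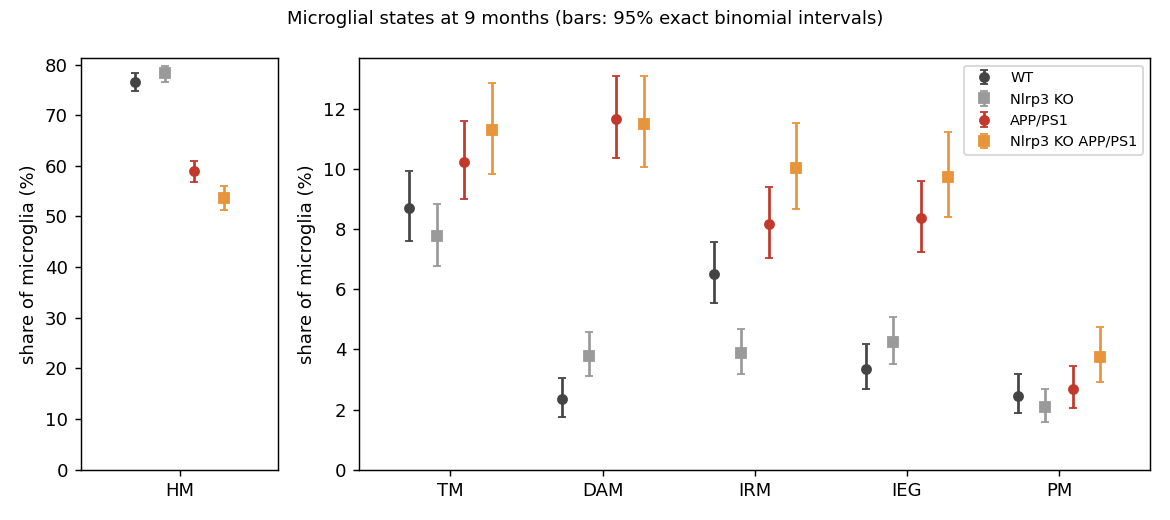
Share of each annotated state among the microglia of each 9-month library, in percent, with 95% exact binomial intervals that cover counting error only. HM fell from 76.6% and 78.3% to 58.9% and 53.7%, and DAM rose from 2.34% and 3.79% to 11.7% and 11.5%.

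In the UMIs summed over all microglia, 93 of 12383 genes tested were higher in the amyloid libraries and 6 were lower (edgeR quasi-likelihood test, adjusted p under 0.05). These are 0.751% and 0.0485% of the genes tested, and 1615 genes reached an unadjusted p under 0.05. The rule of at least 1 log2 unit of change, which the study's own comparisons add, left 64 higher and 1 lower. All 93 genes were higher in both amyloid libraries than in both non-diseased libraries, as were 15% of all genes tested, and the same values chose the 93. The count of calls depended on the libraries. Without the Nlrp3KO library 519 genes were higher, without the WT library 228, without APP/PS1 37 and without Nlrp3KO APP/PS1 2, Ccl6 and Ank.

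Genes of lipid and sterol handling were among the strongest. Ch25h, which makes 25-hydroxycholesterol, was at 1.59 CPM in WT, 0.929 in Nlrp3KO, 15.9 in APP/PS1 and 20.0 in Nlrp3KO APP/PS1 (log2 fold change 3.89, SE 0.392, adjusted p = 0.00723). Fabp5, a carrier of fatty acids, was at 7.32, 3.72, 32.3 and 51.2 CPM in the same order (2.95, SE 0.40, adjusted p = 0.0181). The groups did not overlap for either gene, and the Nlrp3KO APP/PS1 library was the highest for both. Apoe, the lipid carrier that is the major risk gene of late-onset Alzheimer's disease in humans, was at 842, 768, 2054 and 3236 CPM (1.75, SE 0.201, adjusted p = 0.00996). Fabp3 and Acaca, the first enzyme of fatty acid synthesis, rose by 2.93 and 1.64 log2 units. Of 36 tested genes of lipid and sterol metabolism, 6 were called higher and none lower, and the median log2 fold change was 0.27. Over all genes tested 0.751% were called higher and the median was 0.0076.

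Of the lysosomal genes, Cst7, which encodes cystatin F, an inhibitor of lysosomal cysteine proteases, was at 40.0 CPM in WT, 29.4 in Nlrp3KO, 325 in APP/PS1 and 571 in Nlrp3KO APP/PS1 (log2 fold change 3.67, SE 0.406, adjusted p = 0.00923). Cst7 (chr2:150570415-150578944, plus strand, GRCm38) was thus the gene with the largest log2 fold change among those above 100 CPM in the amyloid libraries. Among the proteases, cathepsin L (Ctsl) rose from 1838 and 1736 to 2238 and 2435 CPM (0.44, SE 0.0725, adjusted p = 0.0404). Cathepsin D was at 8707, 8072, 10443 and 11022 CPM and cathepsin B at 1892, 1728, 2064 and 2272 CPM, which did not pass the test (adjusted p = 0.0539 and 0.138). In all, 3 of 18 lysosomal proteases and inhibitors were called higher (median 0.12), and 1 of 31 genes of the vacuolar ATPase and lysosome membrane, Gpnmb (median 0.08), where 0.751% of all genes tested were called higher. Gpnmb, a glycoprotein of lysosomes under lipid load, was at 0.0882, 0.232, 4.44 and 14.9 CPM, which is very low in absolute terms.

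Secreted factors rose in part. Igf1, a growth factor, was at 1.23, 0.852, 14.4 and 16.4 CPM in WT, Nlrp3KO, APP/PS1 and Nlrp3KO APP/PS1 (log2 fold change 3.96, SE 0.478, adjusted p = 0.0114). Spp1, which encodes the matrix protein osteopontin, was at 7.76, 5.65, 37.2 and 74.1 CPM (3.04, SE 0.33, adjusted p = 0.00867). The chemokine Ccl6 had the smallest relative error of the genes called, with 170, 196, 417 and 479 CPM (1.34, SE 0.0779, adjusted p = 0.000937). The ratio of Ccl6 was the same in both pairs, 1.29 on the log2 scale. Csf1, the ligand of the receptor on which microglia depend for survival, rose by 1.35 log2 units, Mif by 0.71 and Ccl9 by 0.44. Of 36 chemokines and cytokines tested, these 6 were called (0.751% of all genes tested were called higher), and Ccl3 (88.0, 32.2, 191 and 141 CPM) and Ccl4 (118, 34.0, 246 and 121 CPM) were not, with adjusted p = 0.229 and 0.401.

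Among the other genes that rose most, Baiap2l2, an actin-linked membrane protein, was at 0.353, 0.465, 9.88 and 12.8 CPM (log2 fold change 4.82, SE 0.348, adjusted p = 0.00235). Ank, a membrane protein of pyrophosphate and ATP export, was at 20.4, 21.9, 68.9 and 98.0 CPM (2.02, SE 0.123, adjusted p = 0.000937). Gm1673 (3.73), Wfdc17 (2.69), the sulfotransferase Chst2 (2.38), Ifitm2 (2.36), the phospholipid-binding protein Anxa2 (2.22) and the respiratory chain subunit Cox6a2 (1.88) are further genes that rose most among those at 10 CPM or more. Another 7 genes called higher (Cd28, Dkk2, Runx3, Tmem51, Trpm1, Ctnna3 and Colec12) had at most 3 UMIs over both non-diseased libraries, and no fold change is given for them.

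**Figure D2:**
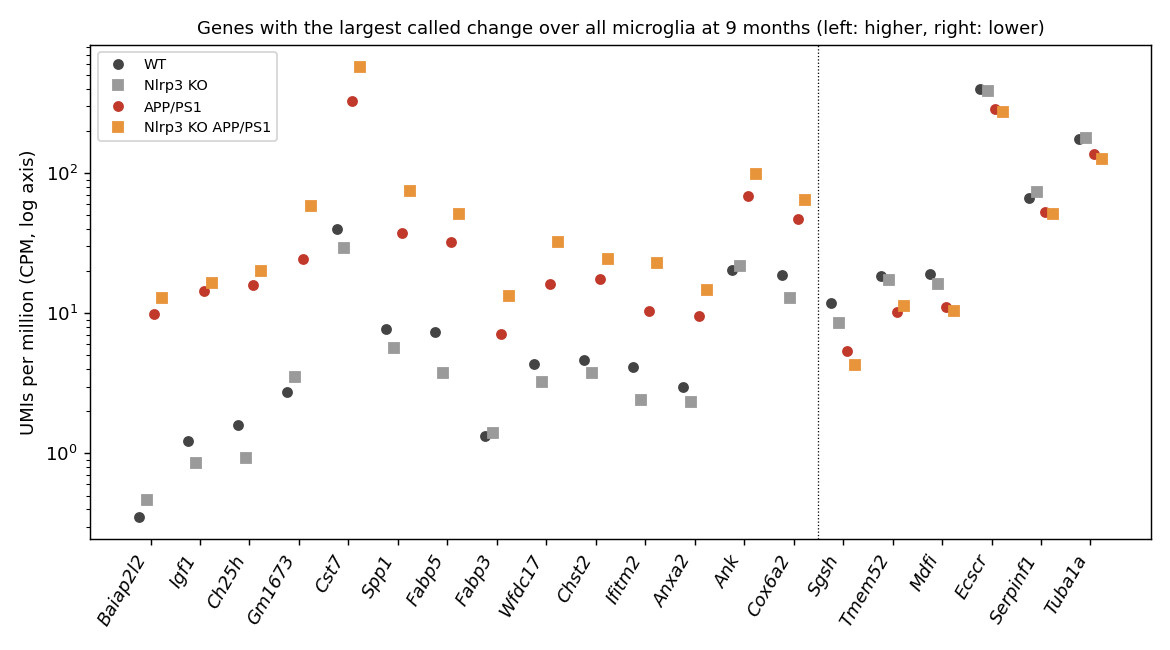
Level of 14 of the genes that rose most and the 6 that fell in each 9-month library, in CPM on a log axis, with 1 point per library. For every gene the 2 amyloid libraries lie on 1 side of the 2 non-diseased libraries, as for Cst7 at 325 and 571 against 40.0 and 29.4 CPM.

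The 6 genes called lower were fitted between −1.02 and −0.37. With the 9-month libraries alone no gene was called lower, and DESeq2 called 2 genes lower in all. Sgsh, a lysosomal sulfatase that degrades heparan sulfate, was at 11.8, 8.52, 5.35 and 4.27 CPM (log2 fold change −1.02, SE 0.168, adjusted p = 0.0397). Ecscr was at 398, 386, 288 and 271 CPM (−0.44, SE 0.0583, adjusted p = 0.0168), and the tubulin gene Tuba1a at 175, 179, 137 and 127 CPM (−0.37). Tmem52 (−0.68), Mdfi (−0.65) and Serpinf1 (−0.39) are the others. No gene of a list of 37 homeostatic genes was called in either direction. Their median log2 fold change was −0.07, and 10 of the 37 were fitted above 0. P2ry12, a purinergic receptor that marks homeostatic microglia, was at 2739, 2793, 2494 and 2333 CPM (−0.15, adjusted p = 0.356), and the transcription factor Sall1 at 325, 328, 296 and 279 CPM (−0.13, adjusted p = 0.385). The amyloid libraries were lower for both genes, by less than the test could call.

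Of 43 tested genes of the DAM program, all 43 were fitted above 0 and 23 were called higher, with a median log2 fold change of 0.83. Over all genes tested, 6390 of 12383 were fitted above 0, 0.751% were called higher and the median was 0.0076. The called members include Apoe, Cst7, Axl, Itgax, Spp1, Igf1, Csf1, Cd74, Hif1a and Lyz2. Axl, a receptor for the uptake of dying cells, was at 15.7, 11.8, 38.1 and 49.7 CPM (1.72, SE 0.172, adjusted p = 0.00723). Lpl, a lipoprotein lipase, was at 42.1, 20.2, 94.9 and 110 CPM and narrowly missed the threshold (1.78, adjusted p = 0.0551). The program's receptor Trem2 was at 3115, 2766, 3166 and 3404 CPM and its adaptor Tyrobp at 3262, 2969, 3600 and 3989 CPM, with adjusted p = 0.338 and 0.138. The DAM list overlaps the lists above and holds genes known from other amyloid models, and the annotated DAM cells were clustered on the same values.

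Of 54 tested interferon-stimulated genes, 9 were called higher and none lower, and 52 were fitted above 0 with a median of 0.50, beside 0.751% called higher and 6390 of 12383 fitted above 0 over all genes tested. The median log2 ratio of the list was 0.23 in the Nlrp3 wild-type pair and 0.70 in the Nlrp3KO pair. Ifi27l2a was at 151, 90.8, 312 and 329 CPM (log2 fold change 1.48, SE 0.186, adjusted p = 0.0135). Lgals3bp, a secreted glycoprotein, was at 152, 130, 244 and 298 CPM (0.999, SE 0.118, adjusted p = 0.0108). The others called were Ifitm2, Ifi207, Slfn2, Slfn5, Sp100, Samd9l and Ly6e. Of 20 MHC class I genes, the classical heavy chains H2-K1 (764, 611, 1050 and 989 CPM) and H2-D1 (861, 679, 1179 and 1175 CPM) were called (0.62 and 0.67, adjusted p = 0.0253 and 0.0301). UMIs of near-identical genes of the MHC, Ifi, Slfn, Ifitm and Gbp families can be split between copies, so values of single members are uncertain.

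MHC class II was called for 1 of 10 genes (0.751% over all genes tested). Cd74, the invariant chain, was at 72.8, 109, 231 and 245 CPM (1.46, SE 0.182, adjusted p = 0.0129). H2-Ab1 was at 21.9, 42.1, 86.4 and 86.0 CPM (adjusted p = 0.0523) and H2-Aa at 5.47, 23, 61 and 57.3 CPM (adjusted p = 0.179). The amyloid libraries were alike for these genes, and the WT library was lower than the Nlrp3KO library. Of a glycolysis list of 23 genes, 6 were called (Tpi1, Pgk1, Pkm, the lactate transporter Slc16a3, Hif1a and Mif), with a median of 0.27. Mif, a cytokine, and Hif1a are also counted in other lists here. Hif1a, the transcription factor that induces glycolytic genes at low oxygen, was at 102, 103, 144 and 155 CPM (0.60, SE 0.0802, adjusted p = 0.0168).

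None of 13 inflammasome genes was called in edgeR (median 0.06, 6 at an unadjusted p under 0.05), with Casp1 at 59.1, 54.7, 55.9 and 56.0 CPM, its adaptor Pycard at 534, 493, 480 and 468 CPM and Il1b at 5.64, 3.33, 8.07 and 10.5 CPM. None of 17 NF-κB genes was called (median 0.15, 4 at an unadjusted p under 0.05), and none of 9 Fc receptor genes (median 0.13, 5 at an unadjusted p under 0.05). Complement was called only for the integrin gene Itgax (1 of 16), surface receptors of lipid, debris and amyloid only for Axl (1 of 35), transcription factors of macrophages only for Hif1a (1 of 43) and growth, adhesion and matrix genes for 6 of 33 (median 0.27). Over all genes tested, 0.751% were called higher and 1615 of 12383 had an unadjusted p under 0.05. C1qa, a subunit of the complement initiator C1q, was at 11605, 10916, 11631 and 11111 CPM. Of 40 proliferation genes none was called (11 at an unadjusted p under 0.05) although 39 were fitted above 0 (6390 of 12383 over all genes tested), and the pairs differed in size, with a median log2 ratio of 0.06 in the Nlrp3 wild-type pair and 1.04 in the Nlrp3KO pair. Of 27 immediate early genes only Cd83 was called, and the pairs differed in sign, with medians of 0.64 and −0.16. Egr1, for example, was at 12.9 CPM in WT, 37.6 in Nlrp3KO, 56.8 in APP/PS1 and 36.3 in Nlrp3KO APP/PS1, so the WT library was the lowest and the Nlrp3KO library lay level with Nlrp3KO APP/PS1.

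Pf4, Ly6c2 and Flt1 were the listed genes of other cell types called higher in the summed microglia, and none was called lower. Over all genes tested, 0.751% were called higher, 6390 of 12383 were fitted above 0 and the median log2 fold change was 0.0076. None of 10 tested lymphocyte genes (20 listed) was called, but 9 of the 10 were fitted above 0, with a median of 0.88. The T cell gene Cd28 and Runx3, a transcription factor of T and NK cells, are not on that list but were called higher. Each had at most 3 UMIs over both non-diseased libraries. The T cell receptor gene Trbc2 was at 0.353, 0.155, 1.18 and 0.962 CPM, and the T cell gene Ms4a4b at 0.529, 0.155, 1.63 and 1.18 CPM. Both were higher in each amyloid library than in either non-diseased library. The summed level of the list, 320 to 331 CPM in the 4 libraries, was mostly Ighm, at 266 to 283 CPM, whose groups overlapped. Of 8 tested border macrophage genes (12 listed), 6 were fitted above 0, with a median of 0.71, and Pf4 was called higher (0.0882, 0.619, 2.81 and 7.27 CPM). The sum of that list went the other way, at 337 and 324 CPM in the non-diseased and 292 and 288 CPM in the amyloid libraries, most of it Stab1 (250, 248, 203 and 199 CPM). Of 11 tested monocyte and neutrophil genes, 5 were fitted above 0, with a median of −0.53. Ly6c2 was called higher (0.176, 0.155, 4.62 and 2.89 CPM), and the neutrophil genes S100a8, S100a9, Camp, Ngp and Lcn2 were all fitted below 0, each highest in WT. Their list summed to 18.9 and 12.3 against 26.6 and 21.7 CPM. Neuronal genes summed to 872 and 973 CPM in the non-diseased and 763 and 810 CPM in the amyloid libraries, and oligodendrocyte genes to 1007 and 1005 against 948 and 919 CPM. Both sums were lower in the amyloid libraries, with 4 and 2 of 7 tested genes fitted above 0, and no gene of either list was called. The most abundant tested gene was the calmodulin gene Calm2 in the neuronal list and Trf in the oligodendrocyte list. Of 7 tested astrocyte and endothelial genes, 4 were fitted above 0 and 1, Flt1, was called higher (2.12, 1.32, 5.44 and 9.83 CPM). The part of such cells in the results above was not tested.

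The same contrast within HM cells alone called no gene among 11970 (0%) in edgeR, with 852 at an unadjusted p under 0.05 and a lowest adjusted p of 0.0779. DESeq2 called 9 genes higher there (Ifi27l2a, Lgals3bp, Apoe, H2-D1, Cst7, H2-K1, Ifi204, Slfn2 and Tnfsf8) and none lower. HM was defined by clustering the same expression values, so genes that separate the states are held near their level by the choice of cells. The edgeR count also turned on 1 library. Without the Nlrp3KO library 383 genes were higher and 8 lower in HM, without WT 6 were higher, and without APP/PS1 or without Nlrp3KO APP/PS1 none was called.

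The genes closest to the threshold within HM were interferon-stimulated. Ifi27l2a was at 37.4 CPM in WT, 29.7 in Nlrp3KO, 90.7 in APP/PS1 and 65.0 in Nlrp3KO APP/PS1 HM cells (log2 fold change 1.23, SE 0.144, adjusted p = 0.0779). Lgals3bp was at 90.6, 90.1, 144 and 150 CPM (0.72, SE 0.0810, adjusted p = 0.0779), and Ifi204, of a family of DNA sensors, at 9.56, 8.85, 21.6 and 23.1 CPM (1.30, SE 0.171, adjusted p = 0.128). For all 3 genes both amyloid libraries lay above both non-diseased libraries. Without cells of a doublet score over 0.5, Ifi27l2a (1.30, adjusted p = 0.0192) and Lgals3bp (0.69, adjusted p = 0.0484) passed the threshold in HM. In the cells that both annotations name HM, edgeR called no gene (lowest adjusted p 0.212). With the 9-month libraries alone it called none in HM either (lowest adjusted p 0.222).

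Over the interferon list, 42 of 46 genes tested in HM were fitted above 0 with a median of 0.45, against 0.014 over all genes tested in HM. Of these genes, 31 were higher in both amyloid libraries than in both non-diseased libraries, whereas 15.9% of all genes tested in HM were. The list summed to 2165 and 2088 CPM in non-diseased HM cells and to 2629 and 2473 CPM in amyloid HM cells. MHC class I genes summed to 4152 and 3924 against 4891 and 5119 CPM in HM, with H2-K1 at 579, 488, 801 and 719 CPM (0.53, SE 0.0785, adjusted p = 0.211) and H2-D1 at 647, 524, 904 and 832 CPM (0.58, adjusted p = 0.217).

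Ifi27l2a and H2-K1 are also abundant in the T, NK and NKT cells of the same libraries, at 535 to 799 and 3020 to 3938 CPM. T cells made up 2.36% and 2.92% of the CD45+ cells in WT and Nlrp3KO and 16.6% and 12.5% in APP/PS1 and Nlrp3KO APP/PS1. Ms4a4b, a T cell gene at 1518 to 1833 CPM in those lymphocytes, was low in HM cells, at 0.363, 0.102, 1.19 and 1.34 CPM, and higher in both amyloid libraries. Of 8 lymphocyte genes tested in HM, 7 were fitted above 0 with a median of 1.30, and 5 were higher in both amyloid libraries than in both non-diseased libraries (15.9% of all genes tested in HM). Their part in the HM results was not tested. Cst7 (146 to 185 CPM), Tnfsf8 (49.7 to 71.3 CPM) and H2-D1 (2222 to 2563 CPM) were also higher in those lymphocytes than in HM cells. Slfn2 was at 396 to 445 CPM in those lymphocytes. Lgals3bp (62.6 to 90.8 CPM), Apoe (9.72 to 126 CPM), Ifi204 (3.75 to 9.73 CPM) and Cpq (5.34 to 7.50 CPM) were lower there than in the amyloid HM cells. In the few B cells, however, Apoe was at 363, 456, 557 and 744 CPM in WT, Nlrp3KO, APP/PS1 and Nlrp3KO APP/PS1. These levels were above those of the HM cells of each library. The part of B cell RNA in the HM values of Apoe was not tested.

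The genes of lowest p in HM also held Cst7 and Apoe of the DAM list, and Tnfsf8 and Cpq, none of which passed the edgeR test. Cst7 was at 14.9, 17.7, 39.1 and 33.2 CPM in HM (1.17, SE 0.185, adjusted p = 0.217), a log2 difference smaller than its 3.67 over all microglia. Apoe was at 236, 345, 405 and 529 CPM in HM (0.71, SE 0.116, adjusted p = 0.217). Tnfsf8, the ligand of the receptor CD30, was at 8.35, 7.12, 16.1 and 18.8 CPM (1.20), close to its 1.28 over all microglia, and the peptidase gene Cpq at 12.3, 11.5, 22.9 and 21.3 CPM (0.90). None of the genes that were lower in HM reached an adjusted p under 0.5. The 10 of lowest p were Tmem52 (−0.60), Bzw2 (−0.54), Rab8a (−0.36), Zfp37 (−0.72), Tbc1d2b (−0.44), Rnh1 (−0.34), Wdr55 (−0.71), the neonatal Fc receptor gene Fcgrt (−0.29), Nudt21 (−0.35) and Sgsh (−0.96).

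Of the 93 genes called higher over all microglia, 73 were abundant enough to test in HM. There 69 of the 73 were fitted above 0 (6358 of 11968 over all genes tested in both fits), with a median of 0.57 against 1.46 for the 93 over all microglia, and 31 of the 73 had at least 0.5 times their log2 fold change over all microglia, beside 7534 of 11968 over all genes. The 6 genes called lower were all lower in HM, each by at least 0.5 times its change over all microglia, against the same 7534 of 11968 over all genes. Both sets were chosen on sums that hold these same HM cells. HM gave 72.9% and 76.1% of the UMIs in WT and Nlrp3KO, and 53.3% and 47.7% in APP/PS1 and Nlrp3KO APP/PS1. The direction in HM is therefore not independent of the choice of genes. Several abundant genes were fitted near 0 within HM. Cd74 was at 26.1, 19.7, 21.4 and 26.2 CPM in HM (0.06, adjusted p = 0.955), Hif1a at 88.5, 93.3, 90.9 and 91.6 CPM (0.02, adjusted p = 0.977) and Pkm at 158, 161, 148 and 155 CPM (−0.07, adjusted p = 0.849).

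**Figure D3:**
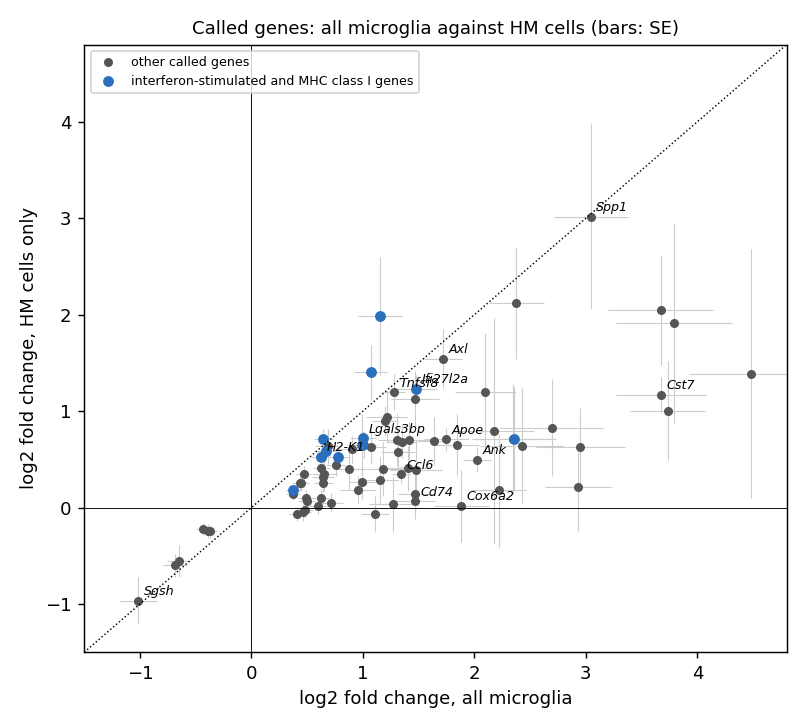
Fitted log2 fold change (amyloid against non-diseased, 9 months) over all microglia and within HM cells for the genes called over all microglia and tested in HM, with bars of 1 SE and a dotted line of equal change. Most genes lie between 0 and the line, with Cst7 at 3.67 and 1.17, while interferon-stimulated and MHC class I genes such as Ifi27l2a (1.48 and 1.23) lie near it.

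Each difference in CPM was then split within each pair into a part from the shares of the states, with levels per state held at the mean of the pair, and a part from levels within the states. Over the 93 genes the shares gave a median of 40.3% of the difference (41.7% in the Nlrp3 wild-type pair and 39.2% in the Nlrp3KO pair, range over genes 10.4% to 98.5%). Most of it came from the DAM share alone (median 36.3%), since DAM held 2.58% and 4.07% of the UMIs in the non-diseased libraries and 15% and 15.8% in the amyloid libraries. Levels within DAM cells gave a median of 34.2%, within HM 8.28%, within IEG 3.70%, within TM 1.64% and within IRM 1.15%. With levels taken from the non-diseased library of each pair, the median part of the shares was 18.3%. For 22 of the 93 genes the shares gave more of the difference than the levels within states.

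Levels within the cells annotated as DAM differed widely between libraries. Cst7 was at 205 CPM in the DAM cells of WT and 81.8 in those of Nlrp3KO, against 1602 in APP/PS1 and 2785 in Nlrp3KO APP/PS1. Apoe was at 803, 3629, 7530 and 12968 CPM in DAM, and Igf1 at 0, 3.81, 86.7 and 94.9 CPM. For all 3 genes the DAM cells of both amyloid libraries lay above those of both non-diseased libraries, and in WT Apoe was higher in TM cells (4438 CPM) than in DAM cells. Ccl6 differed less, at 800, 900, 1337 and 1465 CPM in DAM. Cd74 overlapped between the groups, at 687, 1098, 986 and 1231 CPM.

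The split therefore differed between genes. For Cd74 95.6% of the difference came from the shares of the states, for Olfm4 98.5%, for Pkm 78.6% and for Cox6a2 72.4%. For Cst7 the shares gave 38.9%, levels within DAM 47.3% and levels within HM 3.00%. For Apoe they gave 48.0%, 41.3% and 6.00%. The 2 called MHC class I genes were the reverse, with 42.7% of the difference of H2-K1 and 43.4% of that of H2-D1 arising within HM and 5.65% and 6.45% within DAM. Slfn2 (46.1% within HM), Tnfsf8 (35.7%), Nrp1 (47.3%) and Ctsl (35.0%) were of the same kind. Over the 6 genes that fell, levels within HM gave a median of 50.9% of the difference and the shares 27.7%. HM held 72.9% and 76.1% of the UMIs in the non-diseased and 53.3% and 47.7% in the amyloid libraries. An equal change in CPM in every state would thus also place its largest part within HM, so these parts do not show a change centred in HM.

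**Figure D4:**
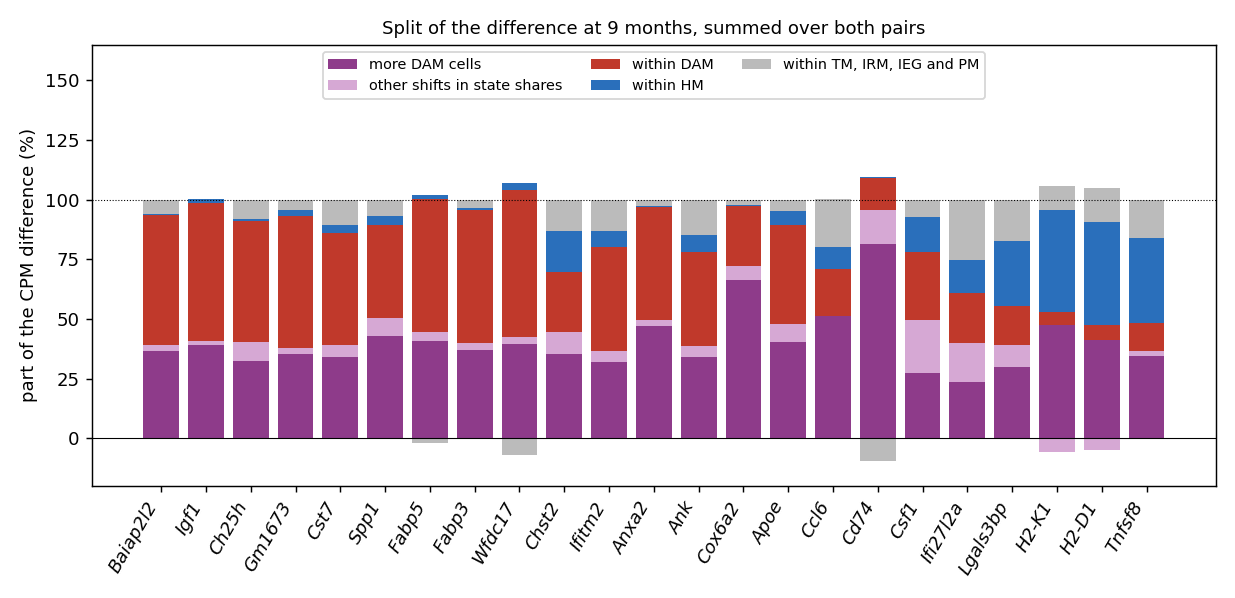
Parts of the CPM difference between amyloid and non-diseased libraries, in percent of the difference summed over both pairs, for 23 called genes. Within-DAM and DAM-share parts make up most of the bars from Baiap2l2 to Anxa2, the DAM share most of Cd74, and levels within HM over 40% of H2-K1 and H2-D1.

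Leaving out the DAM cells reduced the calls to 2 genes higher, Ccl6 (0.80, adjusted p = 0.0337) and Ank (1.09, adjusted p = 0.0499). Leaving out every cell that either deposited annotation names DAM left none (1164 genes at an unadjusted p under 0.05, lowest adjusted p 0.133). The fitted differences did not vanish with the calls. Over the genes called higher that could still be tested, the median log2 fold change was 0.83 without DAM cells (85 genes) and 0.71 without those of either annotation (80 genes). Flt1 turned negative in both fits, at −0.33 and −0.54. By list, the median of the DAM genes went from 0.83 over all microglia to 0.34 without the DAM cells of either annotation and 0.25 in HM. That of MHC class II genes went from 0.86 to 0.07 and 0.03 and that of glycolysis genes from 0.27 to 0.03 and 0.01. The medians were 0.50, 0.56 and 0.45 for interferon-stimulated genes, and 0.33, 0.30 and 0.22 for MHC class I genes. For the interferon list the pairs moved in opposite directions. Its median log2 ratio went from 0.23 over all microglia to 0.50 in HM in the Nlrp3 wild-type pair. In the Nlrp3KO pair it went from 0.70 to 0.28. The lists differ in size between the fits because genes of low counts drop out.

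**Figure D5:**
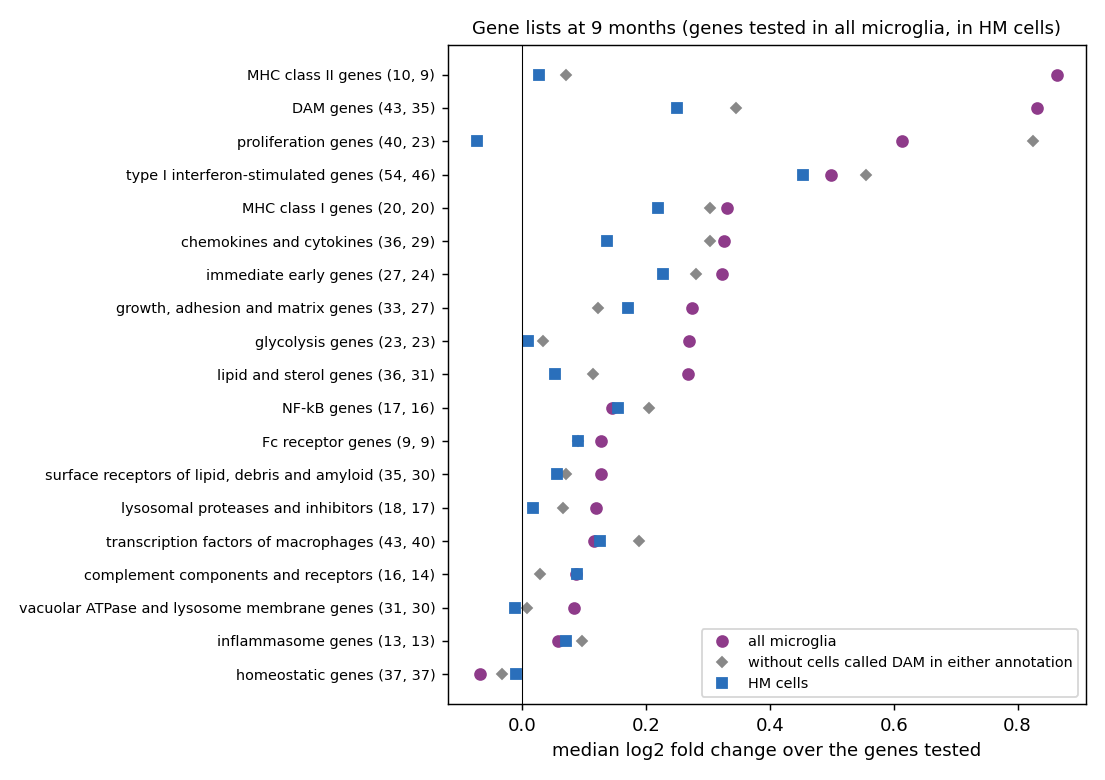
Median fitted log2 fold change (amyloid against non-diseased, 9 months) of each gene list over all microglia, without cells named DAM in either annotation, and in HM cells, with the number of genes tested over all microglia and in HM in brackets. MHC class II and glycolysis genes drop to near 0 outside DAM, while interferon-stimulated genes have medians of 0.56 and 0.45. These medians join 2 pairs that moved in opposite directions for the interferon list.

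Promoter sequences (windows of 300 bases, 250 upstream and 50 downstream of the start, RefSeq, GRCm38.p6) were available for 72 of the 93 genes called higher, with 91 promoters. They were searched on both strands for the AP-1 site TGANTCA, the PU.1 site GAGGAAGT, the interferon response element core GAAANNGAA and the E-box CACGTG of MITF and TFE factors. The AP-1 site was found in 10.99% of these promoters and in 4.85% of the 11976 promoters of all genes tested, the PU.1 site in 9.89% and 3.37%, the interferon response element core in 10.99% and 7.46% and the E-box in 7.69% and 10.1%. Among promoters of the interferon list, 29 of 49 (59.2%) held the interferon response element core. These matches are a description of the letters and show no binding. The promoters below are those of 5 genes called higher, chosen after their values were seen to show matches of 3 of the 4 motifs. Their 250 upstream bases are printed in the reading direction of the gene, with the letters of every match on either strand in capitals, and none of the 5 holds the E-box there. Igf1 (chr10:87860861-87861110, plus strand) and Anxa2 (chr9:69453433-69453682, plus strand) hold an AP-1 site, Spp1 (chr5:104434861-104435110, plus strand) a PU.1 site and, on the opposite strand, the interferon response element core, and Ifitm2 (chr7:140955962-140956211, minus strand) and Slfn5 (chr11:82951852-82952101, plus strand) the interferon response element core.
Igf1: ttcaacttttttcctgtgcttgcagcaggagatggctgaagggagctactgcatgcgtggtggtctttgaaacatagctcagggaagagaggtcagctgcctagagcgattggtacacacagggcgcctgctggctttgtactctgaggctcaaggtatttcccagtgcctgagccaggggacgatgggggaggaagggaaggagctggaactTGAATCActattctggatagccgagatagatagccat
Anxa2: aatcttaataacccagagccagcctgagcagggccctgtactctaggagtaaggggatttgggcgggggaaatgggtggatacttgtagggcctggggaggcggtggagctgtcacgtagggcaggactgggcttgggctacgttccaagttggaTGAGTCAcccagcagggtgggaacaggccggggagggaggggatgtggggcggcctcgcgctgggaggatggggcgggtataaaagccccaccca
Spp1: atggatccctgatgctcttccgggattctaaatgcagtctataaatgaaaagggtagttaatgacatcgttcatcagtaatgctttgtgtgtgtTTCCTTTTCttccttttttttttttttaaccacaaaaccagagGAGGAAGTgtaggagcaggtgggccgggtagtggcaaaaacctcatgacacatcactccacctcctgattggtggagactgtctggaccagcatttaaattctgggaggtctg
Ifitm2: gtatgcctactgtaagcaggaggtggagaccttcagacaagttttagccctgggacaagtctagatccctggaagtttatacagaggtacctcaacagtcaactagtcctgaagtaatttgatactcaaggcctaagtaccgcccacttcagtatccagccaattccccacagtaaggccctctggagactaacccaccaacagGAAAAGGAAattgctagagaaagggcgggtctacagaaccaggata
Slfn5: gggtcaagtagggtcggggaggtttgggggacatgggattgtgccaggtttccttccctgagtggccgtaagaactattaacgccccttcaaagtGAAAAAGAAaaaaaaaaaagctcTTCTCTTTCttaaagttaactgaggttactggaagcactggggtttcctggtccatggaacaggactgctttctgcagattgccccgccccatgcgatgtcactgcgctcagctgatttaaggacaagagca

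The amyloid effect at 9 months was then set against that at 3 months, each taken within its own age because the libraries of an age form 1 batch. No gene of 12383 (0%) was called for a difference between the ages in edgeR (654 at an unadjusted p under 0.05), and DESeq2 called 13 higher. The lowest adjusted p, 0.0865, belonged to Ank (9-month effect larger by 1.57 log2 units, SE 0.166) and Ccl6 (by 0.99, SE 0.108). All 93 genes called higher at 9 months had a larger fitted effect at 9 than at 3 months, a comparison in which the 9-month values chose the genes. Over all genes tested, 10437 of 12383 had a larger effect at 9 months in the direction of their 9-month effect. The median log2 fold change of the 93 at 3 months was 0.30, and 83 of the 93 were above 0 (5836 of 12383 over all genes tested). Cst7 was fitted at 1.67 at 3 months, Ifi27l2a at 0.85 and Lgals3bp at 0.53, whereas Spp1 was at 0.07. Of the state shares, the fall of HM was larger at 9 months (by 0.34 on the log2 scale, SE 0.0772, adjusted p = 0.00124), and the rise of DAM was larger by 1.15 (SE 0.451, adjusted p = 0.0512).

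Between the Nlrp3 genotypes the 9-month amyloid effect differed for no gene of 12612 (0%) in edgeR (565 at an unadjusted p under 0.05, lowest adjusted p 0.946) and for none in DESeq2 (91 at an unadjusted p under 0.05). In this fit each genotype at 9 months is 1 library, which is assumed to vary as the younger libraries do. Of the 93 genes called higher, 74 had a larger log2 ratio in the Nlrp3KO pair (6537 of 12383 over all genes tested, by absolute ratio), with medians of 1.42 there and 1.26 in the Nlrp3 wild-type pair. Cst7 had log2 ratios of 4.27 and 3.02 and Apoe of 2.07 and 1.29, and Ank of 2.15 and 1.75.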

How the data were processed

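CD45+ cells were sorted from brains dissociated with actinomycin D and sequenced by the authors as 10 libraries, 1 per genotype and age. The authors processed reads with Cell Ranger against mm10, filtered cells with Scater, clustered them with Seurat and harmony, and deposited UMI counts per gene and cell without normalization, with 1 annotation of the CD45+ cells and 1 of the microglia. The deposited annotation also gives a doublet score and the ribosomal share as a fraction and the mitochondrial share as a percent. Of its sample names, 2 (6897 cells) matched no sample description and were not used. The matrix held 31053 genes and 52369 cells.

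Counts were summed over the microglia, or the cells of 1 state, of each library. Cells are not replicates here, because each group is 1 pool. edgeR 4.0.16 (filterByExpr, TMM, quasi-likelihood test, Benjamini-Hochberg) was fitted over all 10 libraries. The fit had 5 means of age and amyloid background and a term for Nlrp3 genotype (4 residual degrees of freedom). No pool was repeated, so p-values rest on how the difference between Nlrp3 genotypes varied over age and amyloid background. That spread mixes differences between pools with any Nlrp3 effect that changes with age or amyloid background. SE is the log2 fold change over the root of the F statistic. CPM was taken on all UMIs of the microglia or state. The limit of a call was an adjusted p of 0.05. Cell numbers per state were tested alike, adjusted over the 6 states. Intervals (95%) cover counting error only. In simulated data of all microglia, edgeR called 79 of 100 genes changed by 1 log2 unit and 97 of 100 changed by 2. All libraries were simulated from 1 mean profile, without effects of age, batch or Nlrp3 genotype. The shares called may therefore be higher than in the real data, and these figures do not cover HM cells.

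Genes named are the 15 rising and 15 falling genes of largest called change at 10 CPM or more, up to 8 called and 4 abundant members of each list, and the 10 genes of lowest p per direction in HM. Genes outside this rule (such as Nrp1, Olfm4, Egr1, Lpl, P2ry12, Sall1, Casp1, Il1b, Ccl3, Ccl4 and H2-Aa) were chosen after their values were seen, 1 gene of the rule is not reported here, and the comparison, lists and tests were chosen with earlier results of these data known. Alternatives were DESeq2 1.42.0, its size factors, no count filter, the 9-month libraries alone, no Nlrp3 term, Xist as a covariate, a doublet score limit of 0.5, leaving out libraries or pairs, and another standard for the split. Leaving out cells named DAM in either annotation, and HM cells of both annotations, were added after seeing the data.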

Additional observations from a re-analysis of the deposited data

Results flagged for a closer look

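The amyloid effect on the share of HM cells differed between the ages by a test of the difference itself. It was larger at 9 than at 3 months by −0.34 on the log2 scale (SE 0.0772, adjusted p = 0.00124). Age and batch coincide, so the part of the batch in this difference cannot be told apart.

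T cells lie outside the microglia compared here, and their share of the CD45+ cells was above that of the non-diseased libraries. They made up 16.6% (504 of 3035 cells, 95% exact binomial interval 15.3 to 18.0%) in APP/PS1 and 12.5% (278 of 2223, 11.2 to 14.0%) in Nlrp3KO APP/PS1, against 2.36% in WT and 2.92% in Nlrp3KO. NK cells were at 3.26% in APP/PS1 and between 0.450% and 0.618% in the other 3 libraries.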

How the results depend on the processing

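The number of genes called over all microglia (93 higher, 6 lower) depended on the libraries in the fit, and the cause was not tested. It was between 2 and 519 higher and between 0 and 28 lower when 1 of the 4 libraries was left out, 296 and 28 without the Nlrp3 wild-type pair, 545 and 24 without the Nlrp3KO pair, 22 and 0 with the 9-month libraries alone and 1 residual degree of freedom, and 168 and 18 with Xist as a covariate. A library left alone on its side is assumed to vary like the other libraries. Without DAM cells 2 and 0 genes were called, and 0 and 0 without the cells named DAM in either annotation. The number lower was 2 in DESeq2 (121 higher, 83 of the 99 genes called by both), 3 without the filter on low counts (74 higher), 15 without the Nlrp3 term (115 higher) and 1 with at least 1 log2 unit of change. All 99 genes kept their direction in every setting where they were tested, except Flt1 at −0.33 without DAM cells and −0.54 without those of either annotation. In HM cells, where none was called, 9 were higher in DESeq2, 2 without cells of a high doublet score, 0 to 383 higher and 0 to 8 lower without 1 library, 5 higher without the Nlrp3 wild-type pair and 383 higher and 6 lower without the Nlrp3KO pair. Between 9 and 3 months, 13 were higher in DESeq2 and 0 to 305 higher and 0 to 6 lower without 1 library. No setting called a gene between the Nlrp3 genotypes. Within HM, none was called in the cells that both annotations name HM, or with the 9-month libraries alone. The ratio of the IRM share was 0.41 to 1.29 without 1 library, that of IEG 0.51 with the other annotation, and that of PM 0.66 without cells of a high doublet score and 0.22 to 0.76 without 1 library. The median part of the shares moved from 40.3% to 18.3% with levels of the non-diseased library.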
